A study of Mus musculus with 8 samples.

Results

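The transcripts followed here are those of 10 genes, Acta1, Acta2, Tagln, Cnn1, Myl9, Tpm1, Vcl, Ankrd1, Ccn1 and Ccn2, which encode parts of the contractile actin cytoskeleton or secreted and nuclear products known to be switched on by serum through SRF and YAP. They were selected by symbol, with earlier results of these libraries known, among 37263 counted identifiers, and all 10 were found and all 10 passed the filter on low counts, as did 14931 genes in all. That filter was 1 CPM (a count scaled to the size of its library) in at least 2 libraries. The levels of these genes over time are therefore given as a description, without a test of the change with time.

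RNA was collected from E14 mouse embryonic stem cells (ESCs, 129/Ola strain), an established line grown without feeder cells in serum and LIF. The cells were moved to serum-free medium with LIF and 2i, a pair of small molecules that inhibit MEK (PD0325901) and GSK3 (CHIR99021), and were sampled after 4, 16, 24 and 32 hr. All 8 libraries were in 2i. At each of the 4 times 1 library came from 2i alone and 1 from 2i with vitamin C (vitC) at 17 µM, so that no combination had a replicate culture. No library from cells still in serum was analysed here, so the earliest level is that at 4 hr, when serum had already been removed. The 4 hr and 24 hr libraries were run on 1 lane and the 16 hr and 32 hr libraries on another, so 24 hr against 4 hr, 32 hr against 16 hr, and vitC against 2i at any time each compare libraries of the same lane. In any other pair of times the lane changed as well, and lane and hours cannot be separated there.

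SRF is a transcription factor that binds the CArG box in the promoters of actin and actin-binding genes. Its cofactors of the MRTF family are held in the cytoplasm by monomeric actin and enter the nucleus when actin is driven into filaments, for which serum is a classical stimulus. YAP and its relative TAZ respond to the same cytoskeletal tension and to the Hippo kinases, and act through TEAD factors on genes such as Ankrd1, Ccn1 and Ccn2. The 2 arms share targets, and a gene counted as a YAP target can also hold SRF sites.

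Promoter windows in RefSeq (GRCm38.p6, 250 bases before and 50 bases after the start site) were found for 8 of the 10 genes, all but Tagln and Ccn2. Windows were searched on both strands for the exact CArG box and for GGAATG, the core of the TEAD motif, whose reverse complement is CATTCC. The 2 motifs did not overlap in any of the 8 windows. An exact CArG box was present in 3 of the 8 windows, those of Acta1, Myl9 and Vcl, and in 1.63% of all 32851 promoter windows. Boxes that depart from the exact form by a letter were not searched for. A window without an exact box may therefore still hold an SRF site. GGAATG or its complement was present in 6 of the 8 (Acta1, Acta2, Tpm1, Ankrd1, Ccn1 and Vcl) and in 14.7% of all windows. Neither stood in the Cnn1 window. The windows of 6 genes are printed 5′ to 3′ with these letters in capitals, 3 because they hold the CArG box, Ccn1 as a secreted YAP target, and Acta2 and Ankrd1 because their levels with vitC parted from those in 2i alone.
Acta1, chr8:123894726-123895025, minus strand: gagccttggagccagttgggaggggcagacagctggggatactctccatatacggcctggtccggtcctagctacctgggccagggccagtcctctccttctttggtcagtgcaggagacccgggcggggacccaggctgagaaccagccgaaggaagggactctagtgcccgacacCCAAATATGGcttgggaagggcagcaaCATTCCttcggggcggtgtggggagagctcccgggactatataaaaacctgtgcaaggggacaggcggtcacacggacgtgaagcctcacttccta
Myl9, chr2:156775214-156775513, plus strand: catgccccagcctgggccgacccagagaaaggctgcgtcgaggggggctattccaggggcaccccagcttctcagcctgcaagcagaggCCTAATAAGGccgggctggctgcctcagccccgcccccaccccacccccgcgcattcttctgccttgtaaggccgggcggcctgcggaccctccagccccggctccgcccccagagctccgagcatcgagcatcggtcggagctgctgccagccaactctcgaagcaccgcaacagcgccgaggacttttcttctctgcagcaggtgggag
Vcl, chr14:20929148-20929447, plus strand: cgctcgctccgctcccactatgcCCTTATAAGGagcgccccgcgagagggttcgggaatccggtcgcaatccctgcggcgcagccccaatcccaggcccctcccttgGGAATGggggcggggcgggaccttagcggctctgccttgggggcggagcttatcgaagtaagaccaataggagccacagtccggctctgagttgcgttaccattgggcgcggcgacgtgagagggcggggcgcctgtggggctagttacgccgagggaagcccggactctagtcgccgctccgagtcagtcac
Acta2, chr19:34255324-34255623, minus strand: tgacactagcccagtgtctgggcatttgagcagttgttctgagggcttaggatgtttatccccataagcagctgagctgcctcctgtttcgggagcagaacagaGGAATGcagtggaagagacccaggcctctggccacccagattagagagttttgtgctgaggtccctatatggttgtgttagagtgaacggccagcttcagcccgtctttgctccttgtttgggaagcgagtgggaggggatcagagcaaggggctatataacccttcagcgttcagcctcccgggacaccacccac
Ankrd1, chr19:36119795-36120094, minus strand: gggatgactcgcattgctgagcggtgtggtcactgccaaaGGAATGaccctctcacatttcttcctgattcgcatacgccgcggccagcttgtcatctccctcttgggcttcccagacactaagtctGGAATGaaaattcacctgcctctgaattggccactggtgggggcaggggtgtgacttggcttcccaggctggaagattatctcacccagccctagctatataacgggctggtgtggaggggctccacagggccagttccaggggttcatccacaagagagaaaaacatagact
Ccn1, chr3:145649936-145650235, minus strand: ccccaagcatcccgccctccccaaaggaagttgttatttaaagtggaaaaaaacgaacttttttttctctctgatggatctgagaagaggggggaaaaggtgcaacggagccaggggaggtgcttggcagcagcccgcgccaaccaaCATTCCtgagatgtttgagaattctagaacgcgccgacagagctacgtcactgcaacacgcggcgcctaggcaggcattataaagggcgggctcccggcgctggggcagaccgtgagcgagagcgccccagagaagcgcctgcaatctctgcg

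The CArG boxes began 73 bases before the start site in Acta1, 161 in Myl9 and 227 in Vcl. In Acta1 the TEAD core followed the CArG box at 46 bases before the start site. Ankrd1 was the only one of the 8 windows with 2 copies of GGAATG, at 210 and 123 bases before the start site. A match of these letters is a description of the window, and no binding was measured in these libraries.

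**Figure D1:**
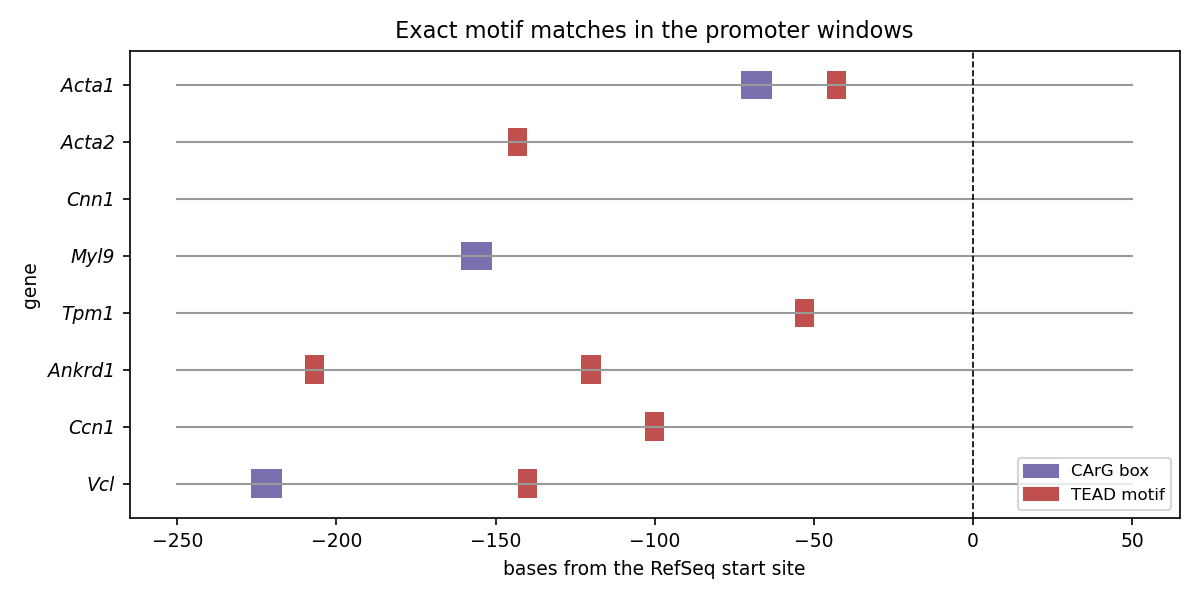
Positions of exact motif matches (boxes, drawn to scale) in the 8 promoter windows; the x axis gives bases from the RefSeq start site (dashed line). CArG boxes lie at 73, 161 and 227 bases before the start site in Acta1, Myl9 and Vcl, and Ankrd1 has 2 TEAD motifs.

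The libraries held 4753528 to 18434932 counts, the shallowest being vitC at 24 hr, and 3 counts corresponded to 0.163 to 0.631 CPM of the library totals. Levels are CPM after TMM scaling, with Wilson 95% intervals that cover counting error only. In all 8 libraries the pluripotency markers were high, with summed levels of 1436 to 1711 CPM for 6 of 6 markers. Libraries also differed in the share of counts on Lars2 and 2 further features, which was 0.0277%, 0.206%, 5.92% and 0.564% in 2i at 4, 16, 24 and 32 hr and 0.0113%, 7.11%, 6.37% and 4.21% with vitC. This share was therefore higher at 24 hr than at 4 hr in both treatments, and its part in the changes over time was not tested for the 10 genes. In bulk RNA, fewer cells that express a gene and less RNA in each cell cannot be told apart.

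Per length, the 10 genes covered a wide range at 4 hr in 2i. The length is that of all annotated exons of a gene joined, which can exceed that of a single transcript. The order between genes is therefore approximate, beyond counting error. Tagln (139 CPM per kb of exon, interval 135 to 143) and Tpm1 (134, 131 to 136) were highest and did not differ beyond counting error. Ccn1 (50.9), Vcl (43.3) and Acta1 (31.7 CPM per kb) followed as separate steps, and Acta2 (25.4) and Myl9 (22.4) overlapped in their intervals. Ccn2 (15.2), Cnn1 (8.58) and Ankrd1 (0.929 CPM per kb) came last, again without overlap. By 24 hr in 2i Tpm1 stood alone at the top with 88.5 CPM per kb, and Acta1, Myl9, Acta2 and Cnn1 had come together between 2.21 and 3.22 CPM per kb, each overlapping the next.

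Among the contractile genes, Acta1 and Myl9 were over 7-fold lower at 24 hr than at 4 hr in both treatments. Acta1, the skeletal α-actin, was at 48.8, 11.5, 4.94 and 6.02 CPM in 2i at 4, 16, 24 and 32 hr and at 32.6, 10.5, 4.29 and 5.09 CPM with vitC. It was high only at 4 hr in both treatments, and was 9.59-fold lower at 24 hr than at 4 hr in 2i and 7.35-fold lower with vitC. Myl9, a regulatory light chain of smooth muscle and non-muscle myosin II, measured 26.0, 5.42, 3.14 and 3.86 CPM in 2i and 21.4, 5.77, 1.50 and 4.59 CPM with vitC. Its 24 hr value with vitC rested on 7 counts (interval 0.727 to 3.10 CPM), so the 12.9-fold lower level there is imprecise, while the 2i libraries gave a 7.95-fold lower level. In both genes the 4 hr libraries did not overlap with any later library.

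Acta2, the smooth muscle α-actin, took a different course in the vitC libraries than in the 2i libraries. Its level was 55.8, 10.9, 5.49 and 10.4 CPM in 2i, and 31.8, 12.4, 17.2 and 34.4 CPM with vitC. In 2i it was 9.91-fold lower at 24 hr than at 4 hr and remained 5.30-fold lower at 32 hr. With vitC it was 1.84-fold lower at 24 hr, and at 32 hr it stood at its 4 hr level within counting error (log2 ratio 0.11, interval −0.08 to 0.31).

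Among the actin-binding genes, Tagln (transgelin, a calponin-related protein that binds actin filaments) was at 276.5, 87.8, 49.2 and 66.0 CPM in 2i and at 193.0, 72.3, 44.2 and 81.0 CPM with vitC. It was lowest at 24 hr in both treatments, 5.60-fold and 4.35-fold below 4 hr. Cnn1 (calponin 1) was at 23.5, 9.84, 6.04 and 7.65 CPM in 2i and at 20.6, 12.0, 3.86 and 5.17 CPM with vitC, and so was 3.81-fold and 5.16-fold lower at 24 hr. Tpm1, a tropomyosin that runs along actin filaments in most cells, changed less. It measured 866.8, 700.7, 574.2 and 579.3 CPM in 2i and 894.6, 689.9, 510.8 and 533.9 CPM with vitC, which is 1.51-fold and 1.75-fold lower at 24 hr than at 4 hr. Vcl (vinculin, which ties actin to integrin and cadherin adhesions) had the smallest range, with 354.4, 314.2, 258.1 and 268.9 CPM in 2i and 408.2, 323.9, 316.5 and 274.9 CPM with vitC. Its 24 hr level was 1.37-fold and 1.29-fold below 4 hr.

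Of the YAP targets, Ccn1 (CYR61), a secreted matricellular protein, was at 102.8, 64.2, 37.1 and 75.3 CPM in 2i and at 141.4, 38.8, 37.8 and 51.5 CPM with vitC. Both 24 hr libraries were low and alike, and both 32 hr libraries were higher, but still 1.36-fold below 4 hr in 2i and 2.74-fold below with vitC. Ccn2 (CTGF), its paralog, was at 43.4, 26.4, 22.0 and 21.7 CPM in 2i and at 43.5, 30.4, 28.1 and 40.2 CPM with vitC. The 2 treatments began at the same level within counting error (log2 ratio 0.00, interval −0.15 to 0.16) and ended 1.85-fold apart. Ankrd1, an ankyrin repeat protein of the nucleus and the muscle sarcomere, was the least abundant by its mean level and in each 2i library, and held 46, 17, 8 and 8 counts in 2i and 23, 47, 31 and 79 counts with vitC. These correspond to 2.68, 0.895, 0.627 and 0.594 CPM in 2i and to 1.72, 6.78, 6.66 and 6.59 CPM with vitC. With vitC its CPM at 24 and 32 hr was above that of Acta1, Cnn1 and Myl9. The intervals overlapped in each case but that of Myl9 at 24 hr. Per kb of exon it was below Acta1 at both times, within counting error (2.31 and 2.80 at 24 hr, 2.28 and 3.31 at 32 hr). At 32 hr it was also below Myl9 per kb (2.28 and 3.95), without overlap of the intervals. After 4 hr, the intervals of Ankrd1 in the vitC libraries and in the 2i libraries did not overlap at any time.

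**Figure D2:**
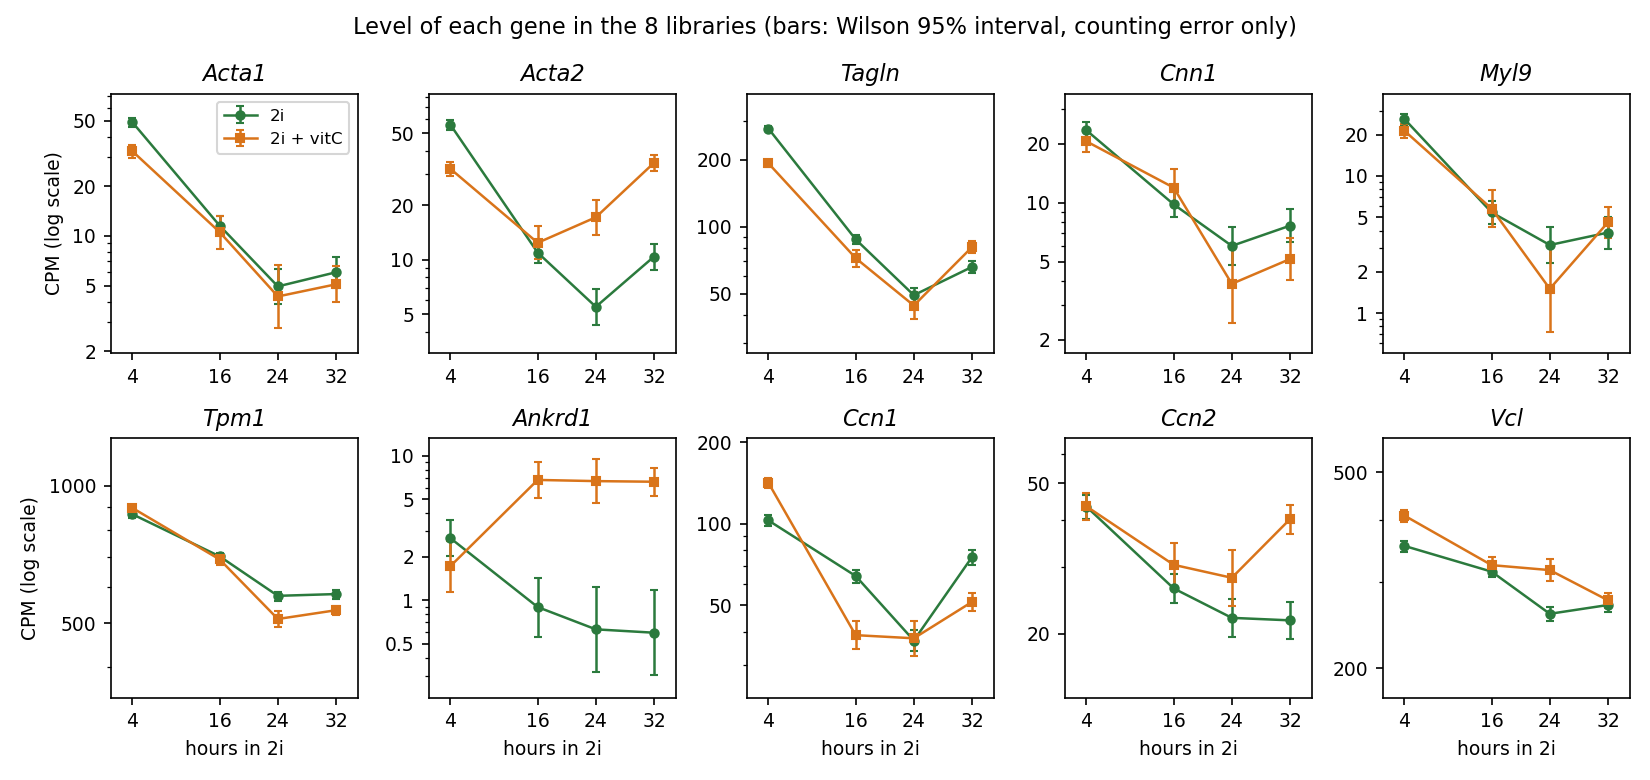
Level of each gene in CPM (log scale, a separate range in each panel) against hours in 2i; circles are the 2i libraries, squares the 2i + vitC libraries, and bars are Wilson 95% intervals for counting error in 1 library each. Acta1 goes from 48.8 to 4.94 CPM in 2i between 4 and 24 hr, and the treatments part in Acta2 and Ankrd1.

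Across the set, all 10 genes were lower at 24 hr than at 4 hr in 2i, with a median log2 ratio of −1.89 and a range from −3.31 (Acta2) to −0.46 (Vcl), and all 10 counting intervals lay below 0. With vitC 9 of 10 were lower, with a median of −1.39, and Ankrd1 was higher (1.86). The median over the 14931 genes was 0.01 in 2i and −0.01 with vitC. The share of all genes with a lower level, or with an interval below 0, is not given here. Nothing is therefore read from these counts of lower genes. A level at least 2-fold lower in both treatments was seen for 5 of the 10 (Acta1, Tagln, Cnn1, Myl9 and Ccn1) and for 2.78% of all genes tested. Since the genes were chosen with these libraries known, nothing is read from that difference. Of the 5, Ccn1 was nearest to that 2-fold limit, with log2 ratios of −1.47 in 2i and −1.90 with vitC. Outside it were Acta2, with −3.31 and −0.88, and Ccn2, with −0.97 and −0.63.

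At 16 hr, all 10 genes in 2i (median log2 ratio −1.33) and 9 of 10 with vitC (median −1.06) were already below 4 hr, although these libraries were on different lanes. The share of the 24 hr decline reached by 16 hr varied. In 2i the log2 ratios were −0.17 of −0.46 for Vcl and −0.68 of −1.47 for Ccn1. With vitC they were −0.78 of −2.37 for Cnn1 and −1.86 of −1.90 for Ccn1. Acta2 with vitC was further below 4 hr at 16 hr (−1.35) than at 24 hr (−0.88). Within the other lane, from 16 to 32 hr, 9 of 10 were lower in 2i with a median of −0.32, and 6 of 10 were lower with vitC with a median of −0.14. From 24 to 32 hr, 8 of 10 were higher in each treatment, with medians of 0.28 in 2i and 0.42 with vitC. These times were on different lanes too. The shares of all genes that were lower or higher over these spans are not given here, so nothing is read from the counts.

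**Figure D3:**
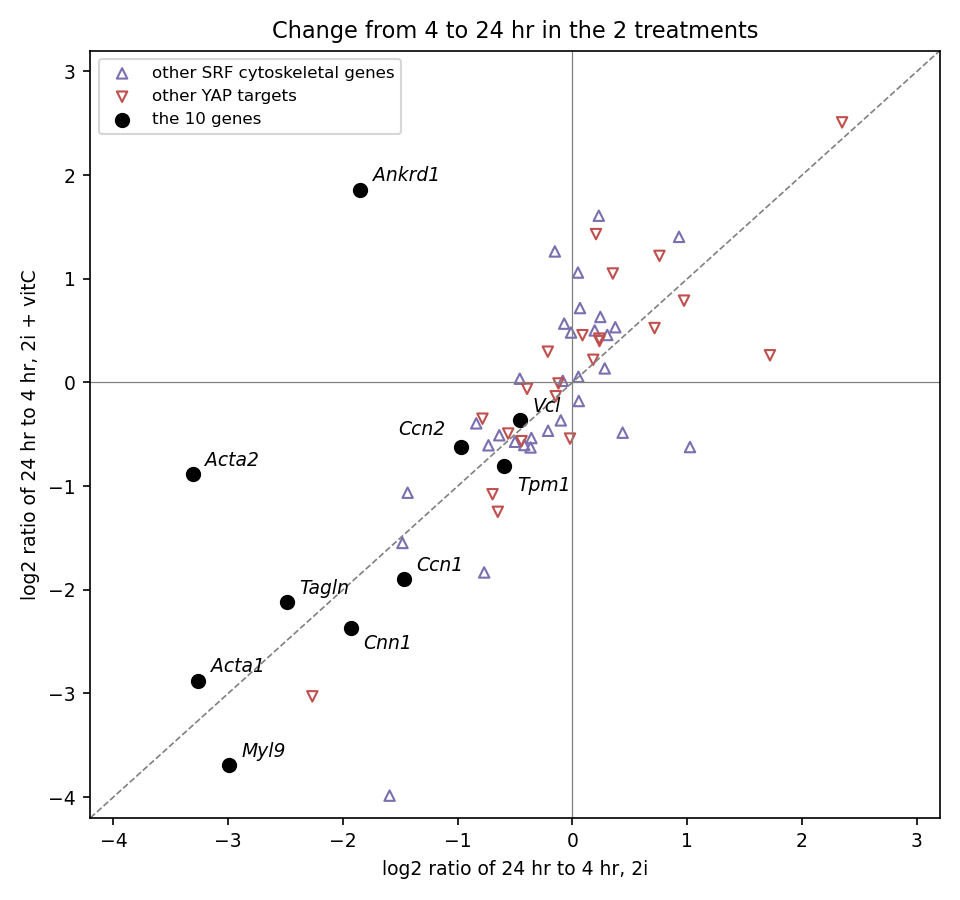
Log2 ratio of 24 hr to 4 hr in 2i (x axis) and in 2i + vitC (y axis) for the 10 genes (filled circles) and for the other SRF cytoskeletal genes (upward triangles) and YAP targets (downward triangles) that passed the filter; on the dashed line both treatments changed equally. Ankrd1, at −1.85 in 2i and 1.86 with vitC, lies opposite the other 9 genes, which are below 0 in both, and the other genes of the lists lie on both sides of 0.

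The next question was whether the 2i and vitC libraries of these genes diverged with time. At 4 hr no gene of the 10 was 2-fold apart between treatments (5.81% of all genes were). At 16 hr 1 of 10 was (8.67% of all genes), namely Ankrd1, and at 24 hr (9.49%) and 32 hr (7.91%) 2 of 10 were, Acta2 and Ankrd1. Ankrd1 was 1.51-fold lower with vitC at 4 hr, within counting error (log2 ratio −0.60, interval −1.29 to 0.10), and was then 6.58-fold, 8.65-fold and 8.93-fold higher with vitC at 16, 24 and 32 hr. Acta2 was 1.75-fold lower with vitC at 4 hr, was not different beyond counting error at 16 hr (log2 ratio 0.18, interval −0.18 to 0.54), and was 3.07-fold and 3.27-fold higher with vitC at 24 and 32 hr. For both genes the vitC library was thus below the 2i library at 4 hr and above it at each later time.

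Smaller differences went in several directions. The log2 ratio of vitC to 2i for Ccn2 was 0.00, 0.21, 0.35 and 0.88 at 4, 16, 24 and 32 hr, and for Tagln it was −0.52, −0.28, −0.15 and 0.29. For Ccn1 it was 0.46, −0.72, 0.03 and −0.55, without an order in time. Acta1 was lower with vitC at all 4 times (log2 ratios −0.58, −0.13, −0.20 and −0.24), but only the 4 hr interval lay off 0. Myl9 was at −0.28, 0.09, −0.99 and 0.24, with an interval off 0 only at 4 hr, and Cnn1 at −0.19, 0.28, −0.62 and −0.55, with an interval off 0 only at 32 hr. Tpm1 and Vcl lay within log2 ratios of −0.17 to 0.05 and of 0.03 to 0.29. The interval of Tpm1 was above 0 at 4 hr and below 0 at 24 and 32 hr. That of Vcl was above 0 at 4 and 24 hr.

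**Figure D4:**
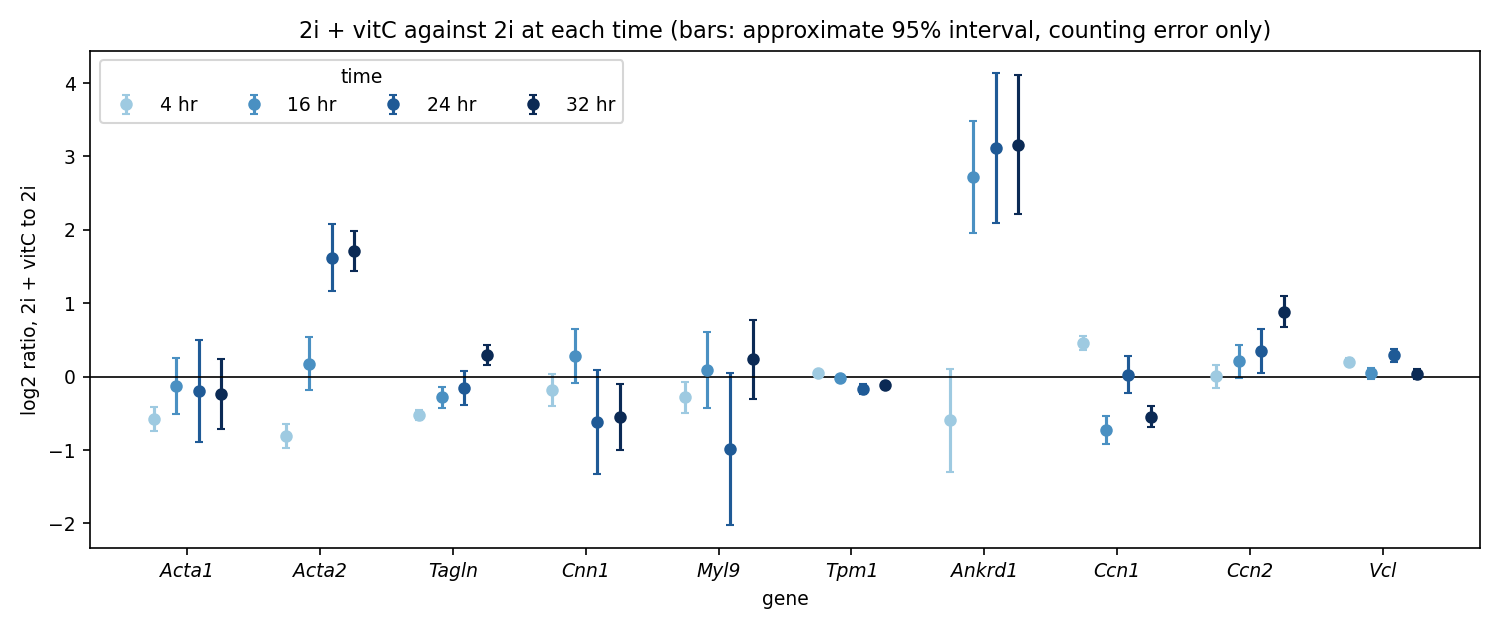
Log2 ratio of 2i + vitC to 2i for each gene at 4, 16, 24 and 32 hr (light to dark), 1 library against 1, with approximate 95% intervals for counting error only. Ankrd1 lies at 2.72 to 3.16 from 16 hr and Acta2 at 1.62 and 1.71 at 24 and 32 hr, whereas the values of the other 8 genes lie within 1 of 0.

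None of the 10 genes passed the edgeR quasi-likelihood test for vitC over all genes with time as a block (Benjamini-Hochberg adjusted p from 0.12 to 0.81), in which 0.167% of genes were called. With no replicate cultures, the error in this test is the departure of the libraries from an additive effect of time and treatment. Unadjusted p was under 0.05 for 2 of the 10 and for 13.8% of all genes. Ankrd1 had a log2 fold change of 2.19 (SE 0.60, adjusted p = 0.12, edgeR), and Ccn2 of 0.36 (SE 0.15, adjusted p = 0.31, edgeR). Acta2 had 0.61 (SE 0.35, adjusted p = 0.47, edgeR), the 4 hr and the later libraries differing in sign. The median of the 10 was −0.11, beside −0.02 over all genes. Without the 4 hr pair, Ankrd1 (3.22, adjusted p = 0.0041, edgeR) and Acta2 (1.19, adjusted p = 0.048, edgeR) passed the threshold. Neither passed with any other pair left out. For Ankrd1 the adjusted p was 0.38, 0.59 and 0.39 without the 16, 24 and 32 hr pair (edgeR). The log2 fold change of Acta2 was 0.32 without the 24 hr pair and 0.20 without the 32 hr pair, and that of Ccn2 was 0.18 without the 32 hr pair. The share of reads on Lars2 and 2 further features also differed between treatments, at 16 hr (0.206% in 2i, 7.11% with vitC) and 32 hr (0.564% and 4.21%), and with its log2 value as a covariate the log2 fold change was 1.34 for Ankrd1 (adjusted p = 0.55, edgeR) and 0.35 for Acta2 (adjusted p = 0.85, edgeR).

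A linear change of the vitC effect with hours was then tested in edgeR, and no gene at all passed (0% called), while 2.89% of genes had an unadjusted p under 0.05, and DESeq2 called 1 gene. Of the 10, 4 were under 0.05 before adjustment, namely Acta2, Ankrd1, Tagln and Ccn2, with the vitC effect shifting upward with time in each. For Tagln and Ccn2 this rested on the 32 hr pair. Without it the change was 0.018 per hr for Tagln (unadjusted p = 0.27, edgeR) and 0.017 per hr for Ccn2 (unadjusted p = 0.37, edgeR). Acta2 had the smallest p of all genes tested (rank 1), with a log2 change of 0.097 per hr (SE 0.015), or 2.73 over the 28 hr from first to last library, and an adjusted p of 0.83 (edgeR). It was also the gene that DESeq2 called (adjusted p = 0.024), and it passed in edgeR without the 24 hr pair (adjusted p = 0.00088) and without a filter on low counts (adjusted p = 0.00015). Over its alternatives the adjusted p of Acta2 ran from 0.00015 to 1.0. Ankrd1 shifted by 0.15 per hr (SE 0.038, adjusted p = 1.0, edgeR), and by 0.034 per hr without the 4 hr pair (adjusted p = 0.89, edgeR). All 10 genes, Acta2 and Ankrd1 among them, were chosen with earlier results of these libraries known. Neither these p-values nor the count of 4 of 10 are therefore independent evidence of divergence.

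Acta1 and Acta2 encode nearly the same protein, and their reads can be set against each other within a library, where scaling cancels. In 2i, Acta2 made up 53.4%, 48.7%, 52.6% and 63.3% of the reads on the 2 genes at 4, 16, 24 and 32 hr. With vitC the share was 49.4%, 54.1%, 80% and 87.1%. The Wilson intervals at 24 hr (44.2% to 60.9% in 2i, 71.1% to 86.7% with vitC) and at 32 hr (56.8% to 69.4%, 83.8% to 89.8%) did not overlap between treatments, while those at 16 hr did. Only 2.02% of the 50-base windows of Acta1 transcripts and 0.326% of those of Acta2 also stand in transcripts of another gene, mostly other actins and their pseudogenes.

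**Figure D5:**
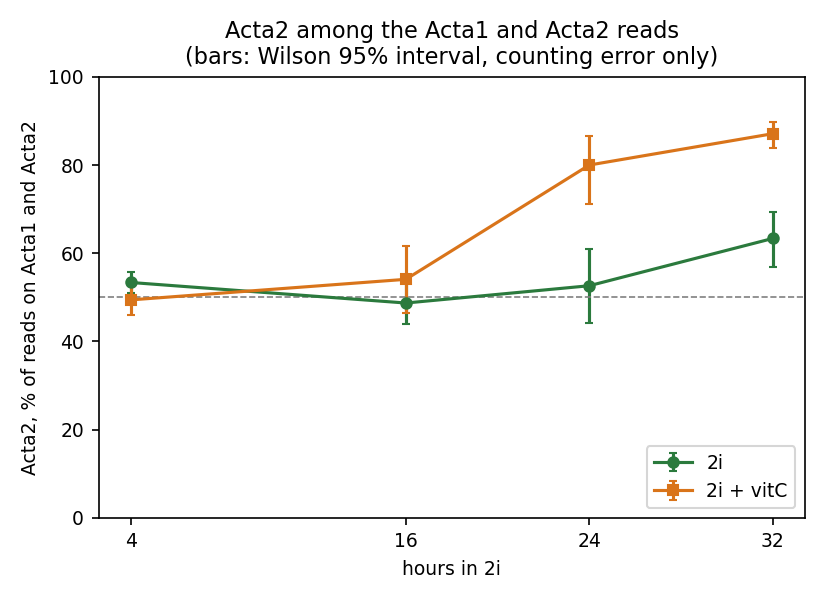
Share of Acta2 among reads on Acta1 and Acta2 (percent, y axis) against hours in 2i, with Wilson 95% intervals for counting error; circles are 2i and squares 2i + vitC, and the dashed line marks equal reads. The vitC libraries reach 80% and 87.1% at 24 and 32 hr, and the 2i libraries 52.6% and 63.3%.

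Markers of other cells moved over the same hours. Of 8 fibroblast markers 6 or 7 were above 1 CPM in every library, and their summed level was 123 to 382 CPM in 2i and 107 to 695 CPM with vitC, lowest at 4 hr and highest at 24 hr in both. Most of it was type I collagen (Col1a1 and Col1a2), and Lum was at 0 in 4 of the 8 libraries. The single markers did not move as 1. Postn was at 0.990, 2.21, 7.76 and 4.16 CPM in 2i and at 0.971, 1.73, 9.02 and 14.6 CPM with vitC, whereas Thy1 was lower at 32 hr than at 4 hr in both treatments (6.53 and 1.63 CPM in 2i, 2.84 and 1.00 CPM with vitC). The 8 muscle markers summed to 37.4 to 51.1 CPM, with 3 to 5 above 1 CPM and most of the sum on Des. The defining muscle genes Tnnt2 and Nkx2-5 were at or below 0.669 CPM and Myh11 at or below 1.07 CPM in every library, while Myh7 reached 3.09, Myh6 6.06 and Tnni3 7.09 CPM. Tnni3, a cardiac troponin, was at 1.98, 1.26, 3.29 and 2.53 CPM in 2i and at 2.09, 3.46, 7.09 and 5.09 CPM with vitC. The 6 primitive endoderm markers summed to 13.3 to 25.0 CPM in 2i and 10.4 to 33.3 CPM with vitC, with 2 to 5 above 1 CPM. Dab2, Pdgfra and Sox17 were higher at 32 hr than at 4 hr in both treatments, and Foxa2 was lower in both. Gata4 and Gata6 were lower at 32 hr than at 4 hr in 2i and higher with vitC. Whether such cells were present, and any part of theirs in the levels of Acta2 and Ankrd1, was not tested.

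Other genes of the 2 arms moved in both directions or did not pass the test. Of 33 other cytoskeletal genes known as SRF and MRTF targets, 31 were tested for 24 hr against 4 hr, and 6 fell, 1 rose and 24 did not pass the edgeR test, where 8.98% of all genes fell and 11.5% rose. Their median log2 fold change was −0.04, beside 0.01 for all genes, and without the treatment term 3 fell and 1 rose. Cnn2 (calponin 2) fell by 1.52 (SE 0.14, adjusted p = 5.3e-05, edgeR), Dstn (destrin, which severs actin filaments) by 1.25 (SE 0.14, adjusted p = 0.00021, edgeR) and Actb (cytoplasmic β-actin) by 0.57 (SE 0.16, adjusted p = 0.024, edgeR). Cnn3 (calponin 3) rose by 0.45 (SE 0.13, adjusted p = 0.028, edgeR). Thus 2 calponins of the family moved in opposite directions, with the third, Cnn1, on the side of Cnn2.

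Of 23 other YAP and TAZ targets, 22 were tested, and 3 fell, 4 rose and 15 did not pass, with a median log2 fold change of 0.11. With the correction for GC content and length, 5 fell and 3 rose, with a median of −0.02. Igfbp3 (a secreted binding protein for insulin-like growth factors) fell by 2.65 (SE 0.22, adjusted p = 2.3e-05, edgeR), Ajuba (a LIM protein of adhesion sites) by 0.96 and Amotl2 (an angiomotin that binds YAP) by 0.51. Ccdc80 (a matrix protein) rose by 2.52 (SE 0.28, adjusted p = 0.00017, edgeR), Gadd45a (a stress-response gene) by 0.98 and Asap1 by 0.69. Between 16 and 32 hr, where 0.335% of all genes rose and 0.248% fell, Igfbp3 was the only gene of the 4 lists past the threshold and fell by 1.33 (adjusted p = 0.022, edgeR).

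Regulators of the 2 arms were also compared for 24 hr against 4 hr. Srf, itself an SRF target, fell by 0.48 (SE 0.15, adjusted p = 0.037, edgeR) and was the 1 gene called among 4 tested of 8 immediate early genes driven by SRF with ternary complex factors; Fosb, Egr1, Egr2 and Egr3 did not pass the filter. Its call was lost without the treatment term (adjusted p = 0.056) and with a correction for GC content and length (adjusted p = 0.070). Among 22 tested of 23 other regulators, 1 fell and 3 rose, where 8.98% of all genes fell and 11.5% rose. Wwtr1 (TAZ) fell by 0.58 (SE 0.13, adjusted p = 0.010, edgeR), while Elk1 (a ternary complex factor) rose by 0.84, Tead1 by 0.82 and Stk3 (a Hippo kinase) by 0.57. The calls of Tead1 and Asap1 were lost with the same 2 alternatives. Yap1 had a log2 fold change of −0.09 (SE 0.14, adjusted p = 0.70, edgeR), Mrtfa of 0.48 (SE 0.31, adjusted p = 0.29, edgeR) and Mrtfb of 0.25 (SE 0.20, adjusted p = 0.41, edgeR), and the sign for Mrtfb turned with the correction for GC content and length. With the log2 share of reads on Lars2 and the 2 further features as a covariate, no gene passed for 24 hr against 4 hr in edgeR (0 of 14931, with 1415 at an unadjusted p under 0.05), and every call in these lists was lost. No gene of any of the 4 lists passed for vitC or for its change with hours.

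The genes most like the 10 in their course were sought among 1226 protein-coding genes whose log2 CPM had a SD of at least 0.5 and whose mean reached 5 CPM, by Pearson correlation over the 8 libraries with the mean of the 10. The 5 highest were Sssca1 (r = 0.96), Akr1b8 (0.94), Armc7 (0.94), Itga3 (an integrin α chain, 0.94) and Dstn (0.94), and 21 genes reached 0.9. With Spearman correlation 1 of the 5 was kept. Sssca1 was at 122.1, 51.4, 42.3 and 46.4 CPM in 2i and at 108.6, 51.5, 44.9 and 49.1 CPM with vitC, and so followed much the same course in both treatments. These correlations are over 8 libraries that share times and lanes, and are given as a description. Among the 10 themselves, the correlation of each gene with the mean of the other 9 was 0.73 to 0.95 for all but Ankrd1, for which it was 0.04.

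Counts of 3 of the genes may be affected by genes on the opposite strand, in a direction that was not determined. The strand setting of the counting is not given in the sources used here. In GENCODE M21, 5.43% of Tagln exon bases overlap Pcsk7 and 62.4% overlap Gm48529, of which the second was not in the counted set. For Ccn2, 23.2% overlap Gm15270, and for Vcl, 25.5% overlap Ap3m1. The other 7 genes overlap no exon of another gene.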

How the data were processed

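RNA was depleted of ribosomal RNA and sequenced as 50 bp single-end TruSeq libraries. The authors deposited raw counts per Ensembl gene, 1 table for each library; the submitters' processing notes name GSNAP, HTSeq and the builds NCBIM37 and mm9, and the annotation and strand setting are not given in the sources used here. Symbols and exon lengths came from GENCODE M21 (32604 of 37263 identifiers found) and promoters from RefSeq. The members and lists were chosen with earlier results of these data known.

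Genes that reached 1 CPM in 2 or more of the 8 libraries were tested with edgeR 4.0.16 in R 4.3.3 (quasi-likelihood test, TMM, Benjamini-Hochberg, threshold 0.05). Models were additive in time and treatment (3 residual degrees of freedom), with treatment by hours added for divergence (2 residual degrees of freedom). P-values test a coefficient or contrast of these models against an error that measures departure from the model, not spread between cultures. Ratios between single libraries used log2 CPM with a prior count of 2, so that folds of low genes are understated. Counting intervals treat reads as independent molecules. The script was tested on simulated data. Named list genes were up to 3 of each direction per list for 24 hr against 4 hr, called, averaging 5 CPM or more and moving the same way in each treatment, plus Srf, Mrtfa, Mrtfb, Yap1 and Wwtr1 whatever their values and the 5 most correlated genes. Alternatives were DESeq2 1.42.0, other scalings, filters and prior counts, thinning, omission of each time, models without the treatment term, and, chosen after seeing the data, corrections for GC content and length or for reads on Lars2 and 2 further features (Gm23935 and 1 unnamed identifier). Inhibitor concentrations differ in unit between labels and paper and are left out.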

Additional observations from a re-analysis of the deposited data

Results flagged for a closer look

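In 4 genes the 2 treatments moved in opposite directions over the same hours with counting intervals off 0 in each. The share of all genes that did so is not given here, so nothing is read from this count. Ankrd1 changed by a log2 ratio of −1.43 in 2i and 1.89 with vitC between 4 and 16 hr, by −1.85 and 1.86 between 4 and 24 hr, and by −1.91 and 1.84 between 4 and 32 hr. Between 16 and 24 hr, Acta2 changed by −0.98 in 2i and 0.46 with vitC. Between 16 and 32 hr, Tagln changed by −0.41 in 2i and 0.16 with vitC, and Ccn2 by −0.28 and 0.40. The spans from 4 to 16, 4 to 32 and 16 to 24 hr join libraries of different lanes. With 1 library for each combination, the difference between treatments over these spans was not tested; the linear change with hours was tested for each gene in edgeR and did not pass the adjusted threshold.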

How the results depend on the processing

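For vitC, 25 genes passed; the count was 54 with library totals, 690 without a filter on low counts, 13 with a mean of at least 5 CPM, 299 with DESeq2, 107 after thinning to the smallest total, 13 with the correction for GC content and length, 60 without the reads on Lars2 and 2 further features, 4 with their log2 share as a covariate, and 0 to 381 with 1 time left out. For the change with hours, 0 passed; the count was 5 without a filter, 1 with DESeq2 and 0 to 8 with 1 time left out. For 24 hr against 4 hr, 3061 passed, 1891 without the treatment term and 0 with the covariate, which itself differed between these times in both treatments. For 32 hr against 16 hr, 87 passed, 589 without a filter, 239 with DESeq2 and 11 without the treatment term. The rise and fall split for 24 hr against 4 hr was 1720 to 1341, and 1518 to 1507 with the correction for GC content and length.

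Among the values of the 10 genes in the vitC and hours tests under alternatives, 235 kept direction and side of the threshold, 8 passed it newly and 5 changed sign without being called. Passing newly were, for vitC, Ankrd1 without a filter (adjusted p = 3.8e-07), with DESeq2 (0.0033) and without the 4 hr pair, and Acta2 without a filter (0.020) and without the 4 hr pair; for hours, Acta2 as given above. Ccn1 changed sign for vitC (0.13 with the covariate). For hours, with 1 time left out, the log2 change per hr ran from −0.0077 to 0.024 for Acta1, −0.034 to 0.0096 for Ccn1, −0.014 to 0.019 for Myl9 and −0.0058 to 0.0029 for Vcl, the sign turning without the 4 hr pair for the first 2 and without the 32 hr pair for the others. The cause was not tested. The sign for Mrtfb at 24 hr against 4 hr was reversed with the correction for GC content and length (−0.034). Among ratios between single libraries, 178 moved by less than counting error and 2, both of Tpm1, by more. Depth limits Ankrd1 and, in the vitC library of 24 hr, Myl9 and Cnn1 (18 counts).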

Other observations

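Acta2 and Ankrd1, the 2 genes whose vitC libraries were at least 2-fold above 2i at 24 and 32 hr, both lie on chromosome 19 (RefSeq, GRCm38.p6). Of the 14 protein-coding genes that stand between them, 7 were tested, and none of the 7 was 2-fold higher with vitC at both times, as were 1.11% of all genes tested. This was looked up after the values of Acta2 and Ankrd1 had been seen, and is given as a description.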
